A study of Homo sapiens with 4 samples.

Results

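The genes described here are 41 components of TGF-beta and BMP signalling, taken as a list of ligands, latent binding proteins, receptors, SMAD proteins, inhibitors and target genes out of 19974 protein-coding genes. All 41 had at least 2 open regions, and together they had 444 of the 122856 regions found in the series. The list was read in 3 groups, 17 genes of the TGF-beta and activin arm, 18 of the BMP arm and 6 that serve both. ATAC-seq, which marks accessible DNA by where the Tn5 transposase can insert, had been run on HCT116, an established human colorectal carcinoma line. The control cells (2 libraries) carried the empty pSin lentiviral vector, and the FOXD2 cells (2 libraries) carried pSin encoding full-length FOXD2, which is a forkhead transcription factor. Both kinds of cells were stable lines kept under puromycin, so lentiviral transduction and the drug were common to all libraries. Whether replicates were separate cultures is not labelled, so their spread may be only technical. The question was which open regions of these genes differ when FOXD2 is supplied.

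TGF-beta and activin ligands bind pairs of type II and type I serine/threonine kinase receptors, which phosphorylate SMAD2 and SMAD3. BMP ligands use related receptors that phosphorylate SMAD1, SMAD5 and SMAD9, and both sets of SMADs enter the nucleus with the common partner SMAD4. SMAD6 and SMAD7 act as feedback inhibitors, SKI and SKIL repress at SMAD-bound sites, and the ID genes are direct BMP targets. In the colon, TGF-beta signalling restrains epithelial growth and BMP signalling opposes the stem cell state of the crypt base. Mismatch repair deficient colorectal lines, HCT116 among them, commonly carry inactivating mutations of TGFBR2.

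Each library had its own deposited list of intervals. The controls had 77752 (replicate 1) and 72796 (replicate 2), and the FOXD2 libraries 82739 and 64675 in the same order. FOXD2 replicate 2 thus had the shortest list and FOXD2 replicate 1 the longest, and both libraries numbered 1 had longer lists than both numbered 2. Overlapping intervals of the 4 lists were merged into regions. A region belonged to the gene it lay in, or otherwise to the nearest protein-coding gene within 100 kb. Lying wholly inside the FOXD2 gene itself, both FOXD2 libraries had an interval of 676 and 689 bp, control replicate 1 had one of 320 bp and control replicate 2 had none. Reads from the vector's coding sequence can map there, so that interval cannot be placed on the genomic copy. Of 8 colon epithelial markers 7 had an interval at a gene end in all 4 libraries, the exception being VIL1 with 2 libraries. The same held for 2 of 6 fibroblast markers (COL1A1 and COL1A2), 1 of 5 leukocyte markers (SPI1) and 1 of 5 endothelial markers (KDR), while DCN and CD14 had no region in any library.

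The pathway genes were open in both conditions. An interval lay within 1000 bp of a gene end in all 4 libraries for 37 of 41 members, against 65.1% of all protein-coding genes, and no member gained or lost its gene-end peak as a whole, where 0.476% and 0.811% of all genes did. The exceptions were LTBP4 and TGFBR3, which had none there in any library, and BMP2 and ENG, which had one in some. RefSeq gives a start window, 250 bases before to 50 after the annotated start, for 37 members. The window held an interval in all 4 libraries for 25 of them, in some libraries for 4 (LTBP3, FST, GREM1 and ENG) and in none for 8 (TGFB2, LTBP4, INHBA, BMP4, BMPR1B, SMAD1, ID4 and SMAD7). Over all genes with such a window the share with an interval in all 4 libraries was 62.7%. For TGFBR3 the window lies inside the gene as annotated, as it does for some other members, INHBA, BMP4 and TGFBR1 among them. For CHRD the interval at the window was assigned to the neighbouring gene THPO and counted there. Among the 8 without an interval in the window, 7 had one at a gene end in all 4 libraries, for SMAD7 centred 1294 bp before the start, and LTBP4 was the exception.

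The strength of those start intervals varied widely between genes. A region held by all 4 libraries was ranked by the deposited −log10 q, the strength of the peak call, among the 39933 regions that all 4 libraries held, so that each library ranked the same set. On this percentile scale ACVR1B, the activin type I receptor, stood at 95.3 and 87.6 in the controls against 97.8 and 83.5 with FOXD2, replicate 1 first in each pair of values from here on. BMPR1A, a BMP type I receptor, stood at 96.4 and 92.9 against 94.5 and 87.0, and SMAD4 at 92.1 and 93.6 against 97.7 and 91.2. The groups overlapped in each of these 3, and SMAD6 had the weakest start interval of the 24. Of the 24 start intervals counted with their own gene, 5 had both FOXD2 libraries ranked above both controls and 6 had both below. Over all genes 18.8% of regions held by all 4 libraries ranked higher in this sense and 19.6% lower, at whatever place they lay.

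**Figure D1:**
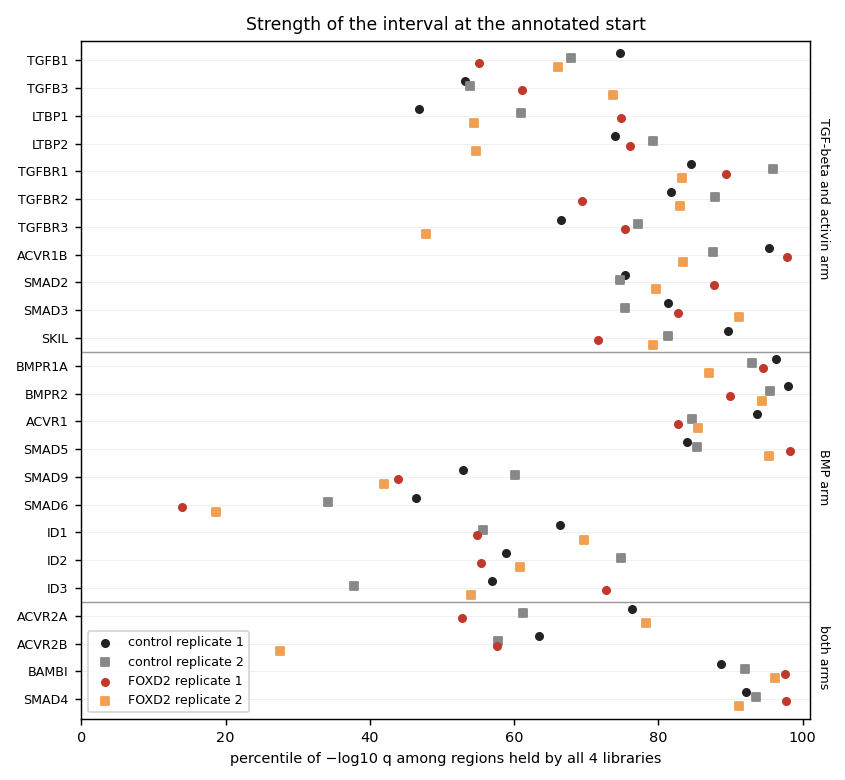
Strength of the interval at the annotated start of 24 pathway genes, as the percentile (x axis, %) of its −log10 q among all regions held by all 4 libraries, with 1 point per library and genes grouped by arm. For SMAD6 both FOXD2 points (13.9 and 18.6) lie below both controls (46.4 and 34.1), and for SMAD5 both (98.2 and 95.4) lie above (84.0 and 85.3).

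SMAD6, the BMP feedback inhibitor, had the widest separation among these starts. Its −log10 q was 23.7 and 17.1 in the controls against 9.36 and 8.83 with FOXD2, percentiles of 46.4 and 34.1 against 13.9 and 18.6. A stronger shared region 555 bp outside SMAD6, before that start, went the other way. It lay at chr15:66700814-66701681, with percentiles of 66.8 and 69.1 in the controls against 73.1 and 80.2 with FOXD2. SMAD9, a BMP receptor SMAD, stood at 53.0 and 60.1 against 43.9 and 41.9. SMAD5, which carries the same signal, stood on the other side at 84.0 and 85.3 against 98.2 and 95.4. BAMBI, a decoy receptor without a kinase, stood at 88.6 and 92.0 against 97.6 and 96.1, and the ligand gene TGFB3 at 53.2 and 53.9 against 61.0 and 73.7. These 5 genes are examples of starts at which the controls and the FOXD2 libraries did not overlap. The same held for ACVR2B, at 63.4 and 57.7 against 57.6 and 27.6. It also held for TGFB1, SKIL and BMPR2, which ranked lower with FOXD2, and for SMAD2 and SMAD3, which ranked higher. With 2 libraries against 2 an exact two-sided permutation test cannot give a p below 0.333, so no single gene could pass such a test.

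The start windows of SMAD6, SMAD9, SMAD5, BAMBI and TGFB3 are shown as examples whose interval there ranked apart, with ID1 as a BMP target whose libraries overlapped. They come from RefSeq (GRCh38.p14, the build of the deposited files) and read 5′ to 3′ on the strand of the gene. Capitals mark 4 motifs searched on both strands, the SMAD palindrome GTCTAGAC, the CAGA element CAGAC, the BMP-responsive element GGCGCC and the forkhead motif TGTTTAC. No letters of one occur whole in another. The SMAD6 window is chr15:66701986-66702285 on the plus strand, the SMAD9 window chr13:36920189-36920488 on the minus strand, the SMAD5 window chr5:136132595-136132894 on the plus strand, the BAMBI window chr10:28677271-28677570 on the plus strand, the TGFB3 window chr14:75982962-75983261 on the minus strand and the ID1 window chr20:31605039-31605338 on the plus strand.
SMAD6: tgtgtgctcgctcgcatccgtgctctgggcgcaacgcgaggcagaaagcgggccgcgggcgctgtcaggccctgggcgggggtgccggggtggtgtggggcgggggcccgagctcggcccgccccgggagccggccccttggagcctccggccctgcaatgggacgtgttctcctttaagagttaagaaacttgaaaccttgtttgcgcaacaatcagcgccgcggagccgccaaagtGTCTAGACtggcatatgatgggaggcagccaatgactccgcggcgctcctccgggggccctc
SMAD9: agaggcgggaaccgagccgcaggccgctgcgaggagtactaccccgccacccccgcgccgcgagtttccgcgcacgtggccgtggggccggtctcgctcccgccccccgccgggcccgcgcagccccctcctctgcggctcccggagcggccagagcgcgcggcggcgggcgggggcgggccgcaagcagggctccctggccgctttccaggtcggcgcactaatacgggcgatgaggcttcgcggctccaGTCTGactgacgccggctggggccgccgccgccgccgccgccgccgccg
SMAD5: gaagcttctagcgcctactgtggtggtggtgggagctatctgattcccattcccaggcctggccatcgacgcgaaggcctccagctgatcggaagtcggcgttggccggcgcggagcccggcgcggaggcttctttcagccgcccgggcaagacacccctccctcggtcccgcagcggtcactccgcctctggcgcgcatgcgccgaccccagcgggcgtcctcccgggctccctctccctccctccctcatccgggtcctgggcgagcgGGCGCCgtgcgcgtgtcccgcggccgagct
BAMBI: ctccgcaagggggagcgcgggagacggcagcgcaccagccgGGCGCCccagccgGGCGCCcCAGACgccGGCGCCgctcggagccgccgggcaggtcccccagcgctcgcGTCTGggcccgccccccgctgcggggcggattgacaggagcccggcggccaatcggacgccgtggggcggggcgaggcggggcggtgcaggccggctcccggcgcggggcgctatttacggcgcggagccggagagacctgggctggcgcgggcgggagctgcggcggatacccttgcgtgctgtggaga
TGFB3: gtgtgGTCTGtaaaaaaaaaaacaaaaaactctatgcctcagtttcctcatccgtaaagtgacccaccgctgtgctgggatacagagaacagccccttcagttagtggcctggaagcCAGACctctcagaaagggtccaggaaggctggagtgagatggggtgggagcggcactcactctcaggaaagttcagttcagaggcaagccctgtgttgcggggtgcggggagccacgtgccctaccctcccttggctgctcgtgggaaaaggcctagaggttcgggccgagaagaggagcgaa
ID1: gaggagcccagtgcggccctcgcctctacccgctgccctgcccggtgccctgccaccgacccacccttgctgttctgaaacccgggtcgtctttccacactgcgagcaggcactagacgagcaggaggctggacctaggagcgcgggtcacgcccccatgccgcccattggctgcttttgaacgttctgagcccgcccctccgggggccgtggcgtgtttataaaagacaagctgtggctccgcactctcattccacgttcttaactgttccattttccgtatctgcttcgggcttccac

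SMAD6 was the only one of the 37 member windows with the SMAD palindrome, which occurred in 0.221% of 15812 protein-coding windows. BAMBI had 3 BMP-responsive and 2 CAGA elements, TGFB3 had 2 CAGA elements, SMAD9 had 1, SMAD5 had 1 BMP-responsive element and ID1 had none of the 4 motifs. The BMP-responsive letters were in 13 of the 37 member windows (35.1%) and in 25.2% of all windows, and the CAGA letters in 19 (51.4%) and 44.1%. The forkhead letters were in none of the 37 member windows and in 2.62% of all. These are matches of letters in 300 bases and nothing more. Base composition went with openness in both sets. Members with a start interval in all 4 libraries had a median GC content of 72.0% against 63.5% for the other 12. These 12 include 4 with an interval in some libraries. Over all genes the medians were 66.7% with an interval in all 4 and 50.7% with none, so the sizes of the 2 contrasts cannot be compared.

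Gained and lost regions were few and ran both ways. A gained region is one with an interval in each FOXD2 library and in no control, and a lost region is the opposite. The pathway genes had 18 gained regions (4.05% of 444, 95% Clopper-Pearson interval 2.42 to 6.33) and 22 lost ones (4.95%, 3.13 to 7.41). Over all 110022 regions assigned to protein-coding genes 3.87% were gained and 3.78% lost, and both values lie inside the intervals of the pathway genes. Such intervals cover counting error only, since regions are not replicates. None of the 40 regions overlapped the body of another protein-coding gene, 23 lay inside their gene, 16 outside it and 1 at a gene end. Their strength was ordinary for such regions, with a median −log10 q of 7.73 and 7.87 for gained ones with FOXD2 (7.82 and 7.38 over all genes) and, in control replicate 1, of 7.31 for lost ones (7.26).

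The arms did not separate in the share of regions gained or lost. The TGF-beta and activin arm had 9 gained (4.46%, 2.06 to 8.29) and 11 lost regions (5.45%, 2.75 to 9.53) of 202. The BMP arm had 9 gained (4.59%, 2.12 to 8.54) and 8 lost (4.08%, 1.78 to 7.88) of 196. The genes of both arms had 0 gained and 3 lost of 46. Each library held a similar share of either arm's regions, 68.3% and 64.4% of the TGF-beta arm in the controls and 69.3% and 56.9% with FOXD2, with 64.3%, 62.8%, 70.4% and 57.1% of the BMP arm in the same order. The low share in FOXD2 replicate 2 goes with its short list, since it held 52.2% of all assigned regions against 66.5% in FOXD2 replicate 1. The arms differed in where their regions lay. Inside the gene and away from its ends were 122 of 202 regions of the TGF-beta arm and 62 of 196 of the BMP arm, and the median gene length was 50546 bp and 38496 bp.

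**Figure D2:**
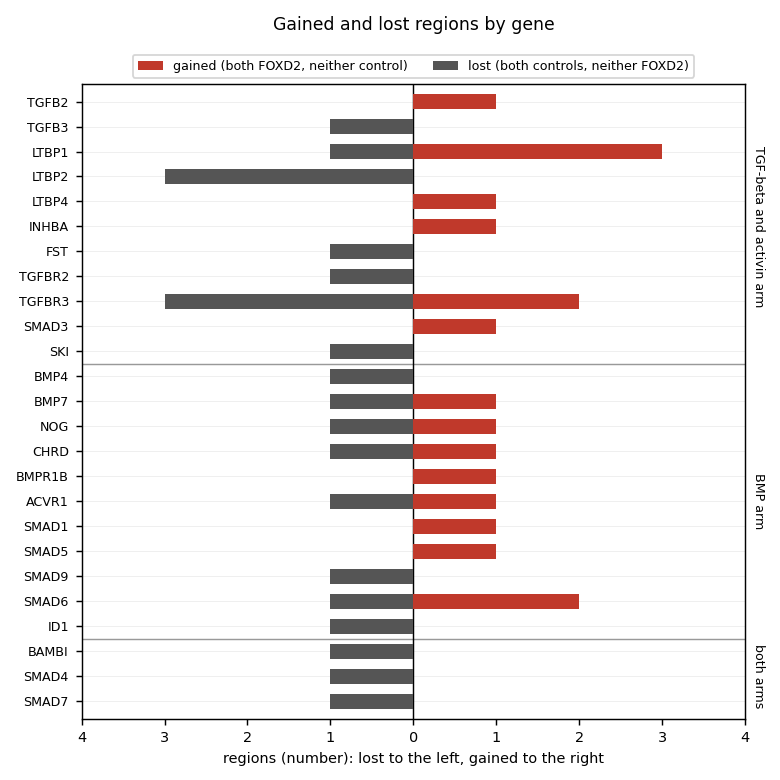
Number of gained (red, to the right) and lost (grey, to the left) regions for the 25 pathway genes that had any (x axis, regions per gene), grouped by arm. LTBP1 had 3 gained and 1 lost, LTBP2 0 and 3, and TGFBR3 2 and 3, while most other genes had 1.

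At least 1 gained region was present at 14 members and at least 1 lost region at 18, with 7 members having both and 16 neither. Over all genes with a region, the shares were 17.9% and 18.3%, but the pathway genes had a median of 9 regions against 4, and genes with more regions more often have a differing one. Among members with 5 to 9 regions, 4 of 16 had a gained and 6 of 16 a lost region, where 21.2% and 21.7% of all such genes did. Among members with 10 to 19 regions it was 4 and 5 of 11 (42.0% and 38.8% of all such genes), among those with 20 or more 5 and 5 of 6 (65.5% and 64.9%), and among those with up to 4 regions 1 and 2 of 8 (5.45% and 6.77%).

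The number of a gene's regions with an interval in each library gave the widest view of single genes. Both FOXD2 counts exceeded both control counts at 4 members (INHBA, BMP2, BMPR2 and ACVR1), and both lay below at 8 (TGFB3, LTBP2, TGFBR1, SKI, BMPR1B, SMAD9, ID1 and BAMBI), against 7.26% above and 8.58% below over all genes with a region. Among all genes with 2 to 60 regions 8.53% were above and 9.97% below, and the members' shares were 9.76% and 19.5%. The share below exceeded that background, which was not matched for the number of regions per gene. The median was 9 regions for members and 4 over all genes. The cause was not tested. FOXD2 replicate 2 had the shortest list and FOXD2 replicate 1 the longest. With the 4 lists shortened to equal length, 5 of 41 members were above and 6 of 41 below. Of the 14430 genes that then had 2 to 60 regions 10.5% were above and 10.0% below. With only 41 members, counts of 5 and 6 lie near those shares. The exact two-sided permutation p was 0.333 for each of the 12 genes, the smallest possible.

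**Figure D3:**
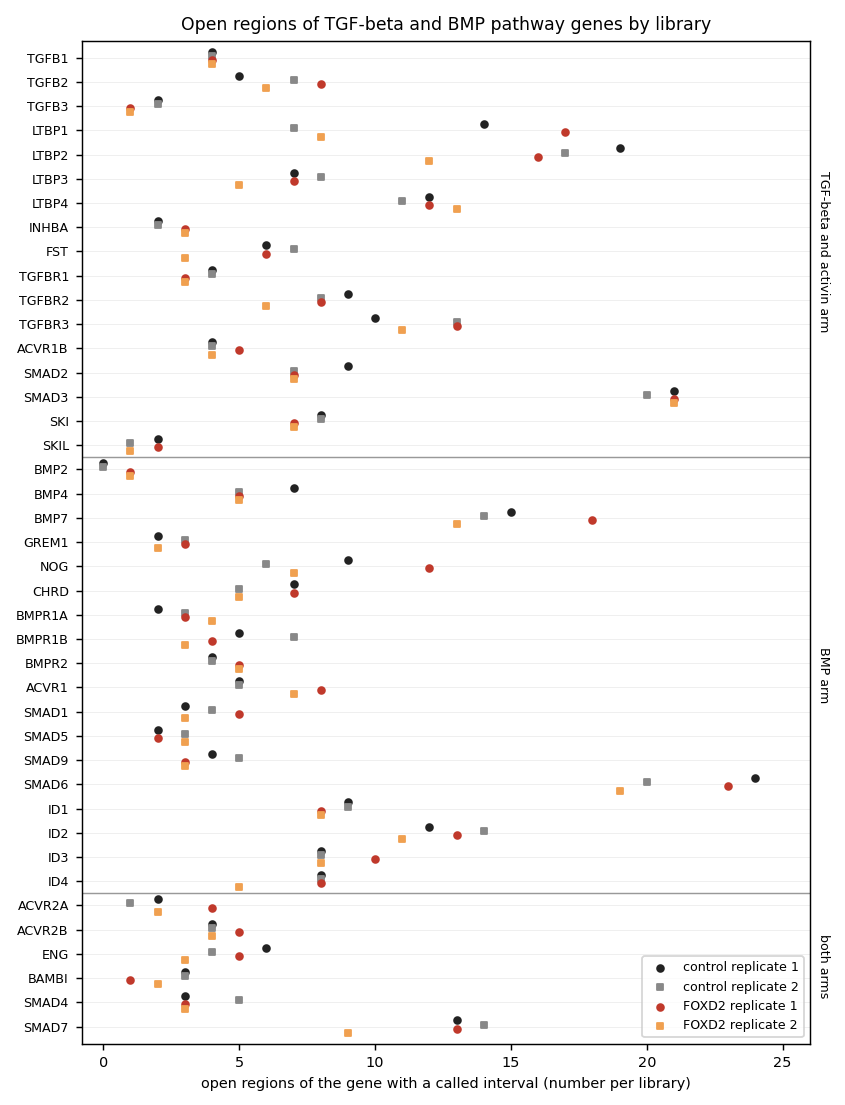
Number of open regions with a called interval (x axis, regions) for each of the 41 pathway genes, 1 point per library, with genes grouped by arm. ACVR1 (5 and 5 in the controls, 8 and 7 with FOXD2) and LTBP2 (19 and 17 against 16 and 12) separate the groups. LTBP1 (14 and 7 against 17 and 8) separates the replicate numbers, as the lengths of the whole lists do.

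Among the ligands, TGFB1, the main TGF-beta of epithelia, had the same 4 regions in all 4 libraries. TGFB2 had intervals in 5 and 7 of its 9 regions in the controls and 8 and 6 with FOXD2, with 1 gained region inside the gene (chr1:218353744-218354093, −log10 q 6.64 and 7.83). TGFB3 had 2 and 2 against 1 and 1. Its lost region lay inside the gene at chr14:75979265-75979515, with a −log10 q of 21.0 and 7.56 in control replicates 1 and 2. That was the strongest value of any lost region of the pathway genes in 1 library, and the 2 controls differed widely in it. INHBA, which encodes the activin A subunit, had 2 and 2 against 3 and 3 regions. Its gained region, 6039 bp from the gene at chr7:41711445-41711957, was the weakest gained one, at −log10 q 3.39 and 2.61.

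BMP2 had no interval in either control and 1 in each FOXD2 library, but in different regions, so neither was a gained region. BMP4 had 7 and 5 against 5 and 5 of 9 regions, with 1 lost 66688 bp from the gene (chr14:53882674-53883048, −log10 q 7.71 and 7.07). BMP7, with 25 regions, had 15 and 14 against 18 and 13. Its gained region lay inside the gene (chr20:57190933-57191384, −log10 q 9.70 and 3.89) and its lost one 51076 bp away (chr20:57117337-57117677, −log10 q 6.13 and 2.78). Shared regions of BMP7 ran both ways as well. Of its 9 regions held by all 4 libraries, 5 ranked higher in both FOXD2 libraries and 2 lower. Over all genes 18.8% and 19.6% of such regions did. The widest separation was at chr20:57205499-57206523 inside the gene, at percentiles of 24.5 and 4.07 in the controls and 59.7 and 42.8 with FOXD2. Control replicate 2 covered only 455 of its 1025 bp. Among the other higher regions, control replicate 1 covered 231 of 627 bp at chr20:57190168-57190794 and 215 of 626 bp at chr20:57250939-57251564. A region beyond TGFB2 at chr1:218521430-218521898 stood at 11.0 and 4.76 against 44.1 and 54.1.

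The latent TGF-beta binding proteins, which hold the inactive ligand in the matrix, differed among themselves. LTBP1 had 3 gained and 1 lost of 23 regions. The gained regions lay at chr2:32937956-32938480, 8473 bp outside the gene (−log10 q 11.9 and 15.3), and inside it at chr2:33015425-33016012 (7.93 and 10.6) and chr2:33210637-33210923 (14 and 11.2). The lost region inside the gene, chr2:33250576-33251128, was weaker, at 5.38 and 3.64. A shared region at chr2:33069793-33070629 stood at percentiles of 57.2 and 30.8 in the controls and 86.4 and 86.4 with FOXD2, and another at chr2:32976152-32977772 stood at 53.0 and 40.8 against 2.2 and 28.8. In number LTBP1 had 14 and 7 regions in the controls and 17 and 8 with FOXD2, so libraries of one group differed more than libraries of the same number. The balance of gained over lost, 2 with all libraries, was −3 without control replicate 2, 0 without FOXD2 replicate 1 and 8 without FOXD2 replicate 2.

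LTBP2 had 0 gained and 3 lost of 25 regions, and 19 and 17 regions in the controls against 16 and 12 with FOXD2. A pair of lost regions lay side by side outside the gene, 7422 and 8394 bp away, at chr14:74619659-74620142 (−log10 q 12.3 and 15.3) and chr14:74620631-74620891 (10.1 and 11.3). The third was inside the gene (chr14:74583882-74584556, 7.45 and 8.89). A shared region inside LTBP2 at chr14:74566563-74567785 stood at percentiles of 42.9 and 56.0 against 15.2 and 15.4. The balance of −3 was −6 without FOXD2 replicate 1 and 0 without FOXD2 replicate 2. LTBP4, by contrast, had 12 and 11 against 12 and 13 regions and 1 gained one inside the gene (chr19:40594720-40595140, 7.36 and 12.1), and LTBP3 had 7 and 8 against 7 and 5 with none gained or lost.

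**Figure D4:**
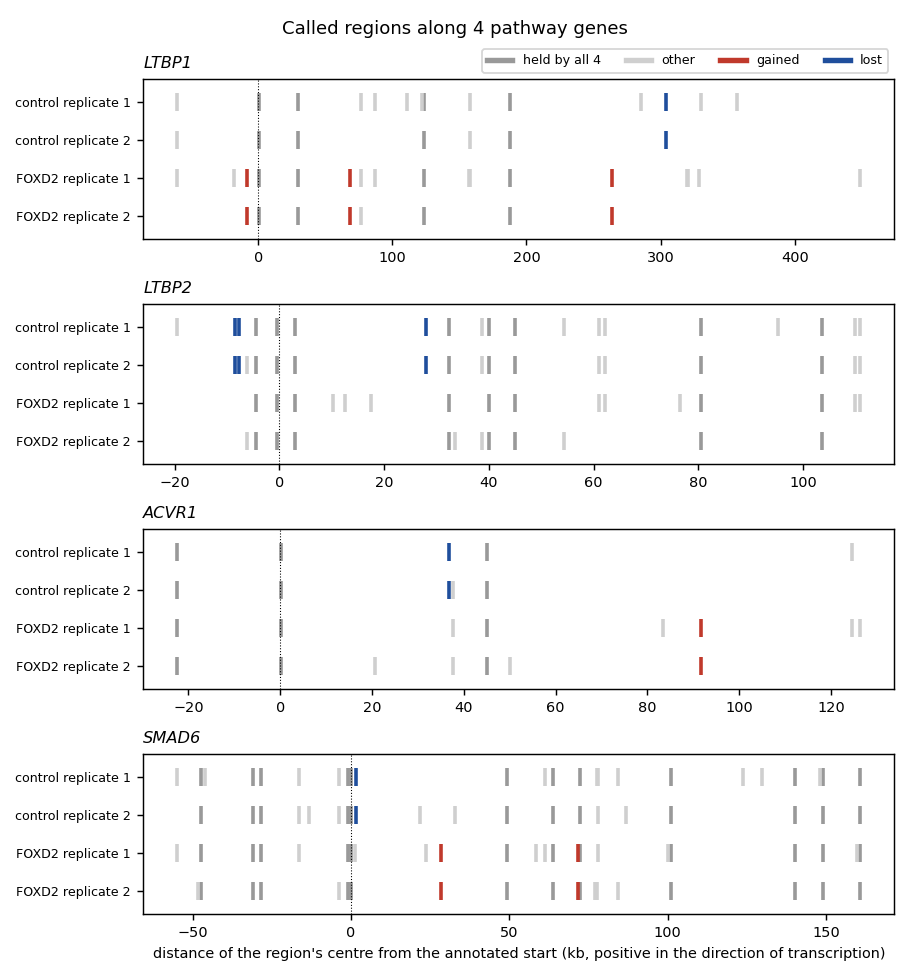
Called regions along LTBP1, LTBP2, ACVR1 and SMAD6 by library (rows), placed by the distance of their centre from the annotated start (x axis, kb, positive in the direction of transcription). Red marks the gained regions (3, 0, 1 and 2 in this order), blue the lost regions (1, 3, 1 and 1), dark grey the regions held by all 4 libraries and light grey all others.

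The ligand inhibitors were mixed. FST, which traps activin, had 6 and 7 against 6 and 3 regions and 1 lost region 1873 bp outside the gene (chr5:53478425-53478756, −log10 q 11.7 and 13.0). GREM1, a BMP antagonist, had 2 and 3 against 3 and 2 regions with none gained or lost. NOG and CHRD, which also bind BMPs, each had 1 gained and 1 lost region, all at least 18538 bp from the gene. For NOG these were chr17:56676849-56677228, −log10 q 8.0 and 7.43, and chr17:56679273-56679505, −log10 q 5.47 and 7.71. For CHRD they were chr3:184459459-184459683, −log10 q 8.01 and 7.91, and chr3:184409277-184409727, −log10 q 4.91 and 6.97, the gained region first in both. Regions of NOG, like those of LTBP1, were more numerous in both libraries numbered 1 (9 and 12) than in those numbered 2 (6 and 7). The whole lists were also longer in both libraries numbered 1.

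Among the receptors, ACVR1, a BMP type I receptor, had the strongest gained region of the pathway. It lay inside the gene at chr2:157784413-157784914, with a −log10 q of 36.0 and 16.4 in FOXD2 replicates 1 and 2, the 85.6 and 65.6 percentiles of all intervals in those lists. The lost region of ACVR1, also inside the gene at chr2:157839180-157839764, was close to the weakest, at 3.47 and 4.69. The gene had 5 and 5 regions in the controls against 8 and 7 with FOXD2. BMPR2, the BMP type II receptor, had 4 and 4 against 5 and 5, but no region was gained, and the difference turned when a library had to cover 50% of a region to count (an average of 0.5 fewer regions with FOXD2). BMPR1A had 2 and 3 against 3 and 4 regions. BMPR1B, its close relative, had 5 and 7 against 4 and 3 with 1 gained region inside the gene (chr4:95107693-95107961, −log10 q 6.64 and 4.06). A shared region inside BMPR1B, chr4:94827755-94828129, had the largest difference between group means of the list's shared regions whose groups did not overlap, at percentiles of 6.05 and 1.28 in the controls and 70.6 and 39.0 with FOXD2.

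Among the TGF-beta receptors, TGFBR1 had 4 and 4 against 3 and 3 regions with none gained or lost. TGFBR2 had 9 and 8 against 8 and 6, with 1 lost region inside the gene (chr3:30631207-30631509, −log10 q 11.5 and 12.3). Yet 3 of the 4 regions of TGFBR2 held by all 4 libraries ranked higher in both FOXD2 libraries, against 18.8% over all genes. The largest difference between their group means was at chr3:30688876-30689695, with percentiles of 10.1 and 41.7 against 47.6 and 53.8. The 2 controls differed widely there. TGFBR3, the co-receptor betaglycan, had 2 gained and 3 lost of 21 regions. Both gained ones lay inside the gene, at chr1:91827527-91828117 (6.06 and 15.0) and chr1:91845192-91845467 (8.46 and 7.44). Of the lost ones 1 lay inside (chr1:91872699-91873194, −log10 q 5.38 and 7.03). The other 2 lay near each other, 70368 bp (chr1:91609676-91609975, −log10 q 7.79 and 18.0) and 68334 bp away (chr1:91611602-91612009, −log10 q 5.28 and 5.81).

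The activin receptors ACVR1B, ACVR2A and ACVR2B had no gained or lost region. ACVR2A had 2 and 1 against 4 and 2 regions, and ACVR2B 4 and 4 against 5 and 4. Of the 4 regions of ACVR2B held by all 4 libraries 2 ranked lower in both FOXD2 libraries, the one at its start among them. ENG, an endothelial co-receptor, had 6 and 4 against 5 and 3 regions, none gained or lost. BAMBI had 3 and 3 against 1 and 2, with 1 lost region 8562 bp away (chr10:28668558-28668959, −log10 q 6.15 and 4.50), although its start interval ranked higher with FOXD2.

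The receptor SMADs had 3 gained regions and 1 lost one of 61. SMAD1 had a gained region inside the gene (chr4:145545905-145546231, −log10 q 13.5 and 10.3), SMAD5 one 9143 bp outside it (chr5:136123293-136123702, 5.59 and 12.1) and SMAD9 a lost one inside the gene (chr13:36850903-36851443, 7.17 and 6.61). In number of regions only SMAD9 of these 3 separated the groups, with 4 and 5 against 3 and 3. SMAD3, with 30 regions, had 21 and 20 against 21 and 21 and 1 gained region inside the gene (chr15:67146965-67147255, −log10 q 4.53 and 5.56), and SMAD2 had 9 and 7 against 7 and 7 and none. SMAD4 had 3 and 5 against 3 and 3 with 1 lost region inside the gene (chr18:51051165-51051383, 10.1 and 6.13). Of the 14 regions of SMAD3 held by all 4 libraries 3 ranked higher in both FOXD2 libraries and 3 lower.

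The inhibitors inside the cell were mixed. SMAD6, with 37 regions the richest member, had 24 and 20 against 23 and 19. It had 2 gained regions inside the gene, at chr15:66730414-66730945 (−log10 q 7.54 and 5.48) and chr15:66773913-66774240 (7.25 and 5.85). Its lost region at chr15:66703763-66704146 (5.97 and 6.10) lay 1719 bp past the start whose interval ranked lower. SMAD7, the inhibitor of both arms, had 13 and 14 against 13 and 9 regions and 1 lost region inside the gene, 2251 bp past the start (chr18:48948576-48948853, 7.06 and 6.60). The shared region of SMAD7 just before the start, chr18:48951552-48952965, ranked higher with FOXD2 (25.8 and 31.3 against 48.8 and 59.3), and one beyond the gene, chr18:48901768-48902563, ranked much lower (84.7 and 71.9 against 32.0 and 38.9). SKI had 8 and 8 against 7 and 7 regions, 1 lost region 4108 bp away (chr1:2314321-2314981, −log10 q 10.2 and 6.71) and a lower rank at its gene end (96.1 and 96.7 against 92.4 and 88.1). SKIL had 2 and 1 against 2 and 1, and its start stood at 89.6 and 81.4 against 71.7 and 79.2.

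The ID genes, which encode inhibitors of basic helix-loop-helix factors, had the highest share of regions held by every library of the 9 roles, with 30 of their 46 regions (65.2%) held by all 4 libraries against 34.1% over all genes. They had 0 gained regions and 1 lost one. It lay 430 bp beyond the end of ID1 (chr20:31606940-31607524, −log10 q 13.3 and 12.6), and the other 8 regions of ID1 were held by all 4 libraries. ID2 had 12 and 14 against 13 and 11 regions, ID3 8 and 8 against 10 and 8 and ID4 8 and 8 against 8 and 5. Of the 30 shared regions 3 ranked higher in both FOXD2 libraries and 10 lower by −log10 q, but 9 ranked higher and 4 lower by the authors' fold enrichment, so their direction turned with the measure, and with genes assigned only within 20 kb 1 ranked higher and 6 lower by −log10 q. One 11216 bp outside ID1, chr20:31593210-31594073, stood at 83.7 and 86.7 against 69.8 and 66.5.

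The shared regions were also counted by role. Of 25 shared regions of ligands 10 (40%) ranked higher in both FOXD2 libraries and 3 (12%) lower, and of 25 of SMAD6, SMAD7, SKI and SKIL 6 (24.0%) ranked higher and 10 (40%) lower. By fold enrichment these counts were 9 and 3 for ligands and 6 and 11 for the inhibitors, but only 5 ligand regions ranked higher, against 3 lower, when a library had to cover 50% of a region. Single genes weighed heavily, since BMP7 held 5 of the 10 ligand regions that ranked higher and SMAD6 held 5 of the 10 inhibitor regions that ranked lower, while SMAD7 had 3 higher and 2 lower. The receptors had 7 higher and 5 lower of 24 and the receptor SMADs 6 and 5 of 24. Over the whole list 41 of 175 shared regions (23.4%) ranked higher and 40 (22.9%) lower, against 18.8% and 19.6% of 37493 over all genes. In the TGF-beta arm 17 of 78 shared regions (21.8%) ranked higher and 13 (16.7%) lower. In the BMP arm it was 20 (25.3%) and 21 (26.6%) of 79. By fold enrichment the counts were 17 and 12 in the TGF-beta arm and 27 and 16 in the BMP arm. The median change in percentile was −0.31 for the list, −0.67 for the TGF-beta arm and 1.31 for the BMP arm, against −0.28 over all genes.

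**Figure D5:**
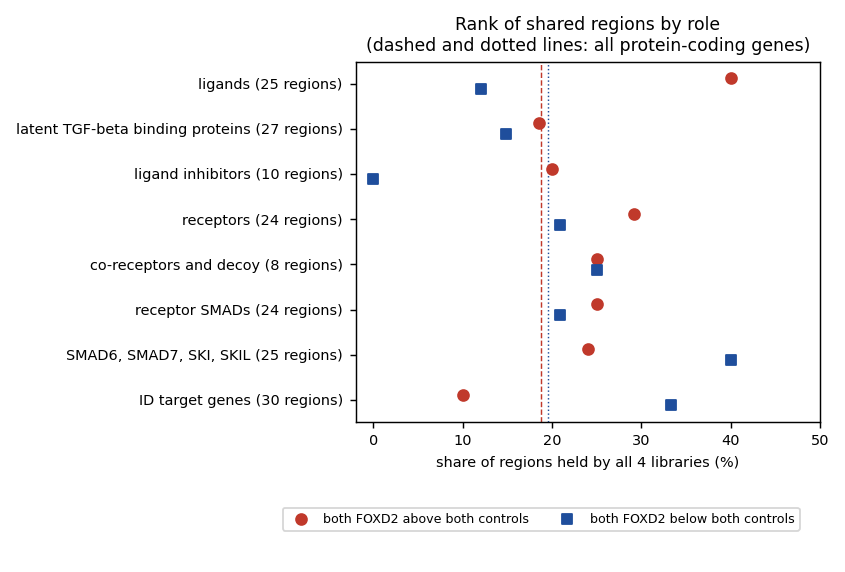
Share (x axis, %) of the regions held by all 4 libraries that had both FOXD2 libraries ranked by −log10 q above (circles) or below (squares) both controls, for 8 roles, SMAD4 aside, with the number of regions beside each role. Ligands lie at 40% and 12% and the ID genes at 10.0% and 33.3% (9 regions above and 4 below when ranked by fold enrichment), around 18.8% and 19.6% over all genes (lines).

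Another 40 genes of the pathway, beyond the 41, had 9 gained (3.56%, 1.64 to 6.65) and 7 lost regions (2.77%, 1.12 to 5.62) of 253. Only 1 of them, BMP6, had gained and lost regions that differed by 2 or more. It was named by that rule, and the share of all genes that meet the rule is not given. Of all genes with 10 to 19 regions 42.0% had at least 1 gained region. BMP6, a BMP ligand, had 4 gained and 0 lost of 11 regions, with 5 and 5 regions in the controls against 9 and 10 with FOXD2. Of these gained regions 3 lay inside the gene, the strongest at chr6:7730891-7731232 with a −log10 q of 17.5 and 14.9, and 1 outside it at chr6:7697902-7698271 (10.2 and 4.92).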

How the data were processed

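Chromatin accessibility was measured by ATAC-seq in 2 control and 2 FOXD2 libraries of HCT116 cells. Per the submitters' processing notes, the tools named are MACS2 (2.2.7.1), bedtools, Picard, Bowtie2 (2.3.4.1) and cutadapt (3.4), and the build is hg38. No settings or Tn5 read shift are stated in what was used here. The deposited files hold 1 peak list per library, not pooled. Each interval has the authors' fold enrichment, a ratio over local background in that library, the deposited −log10 p and −log10 q, a deposited score (not used, nor was −log10 p) and a summit. No read counts were used, and read depth is unknown.

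Intervals on chromosomes 1 to 22 and X (0.208% to 0.251% of a list lay elsewhere) were merged where they overlapped by 1 bp or more and assigned to RefSeq genes (GRCh38.p14), to every gene body overlapped or else the nearest within 100 kb. Single counts were compared by exact permutation tests. Every member is named, and of other pathway genes those whose gained and lost regions differed by 2 or more. The members, lists and rules were chosen with earlier results of these data known. Alternatives were a −log10 q of 5, equal list lengths, coverage of 50% of a region, 250 bp summit windows, 20 kb, nearest gene end, each library left out and, added after seeing the data, ranks by fold and differences within replicate numbers. Merging and assignment were tested on simulated data. Python 3.11.15, pandas 2.3.3 and scipy 1.17.1 were used.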

Additional observations from a re-analysis of the deposited data

How the results depend on the processing

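As a paired view chosen after seeing the data, differences were taken within each replicate number (a replicate block), which is a looser rule than groups that do not overlap. Then 8 members (19.5%) had more regions with FOXD2 in both numbers (4 by the rule of the report) and 11 (26.8%) fewer (8). Among all genes with 2 to 60 regions the shares were 12.3% and 15.6%. Of 175 shared regions of members 54 (30.9%) ranked higher and 54 (30.9%) lower, against 26.4% and 27.7% over all genes. The deviations of same-numbered libraries correlated at 0.06 over 18145 genes, with counts scaled to list length. This rests on a single difference per group and the scaling removes list length, so it cannot decide whether the numbers pair the libraries. The labels do not say whether they do. Leaving out a library relaxes the definitions of gained, lost, above and below, so these counts shift by construction. Over the 4 omissions gained regions of the members ran from 25 to 72 (18 with all libraries) and lost ones from 27 to 60 (22). In the TGF-beta arm gained regions ran from 14 to 31 (9) and lost ones from 14 to 28 (11), and in the BMP arm from 11 to 34 (9) and from 9 to 26 (8). Shared regions ranked higher ran from 59 to 79 (41) and lower from 61 to 74 (40), members with more regions from 6 to 14 (4) and with fewer from 8 to 17 (8). The gained maxima, and the maximum of members with more regions, came without FOXD2 replicate 2, the shortest list. LTBP1's gained minus lost ran from −3 to 8. Lost regions of the BMP arm numbered 5, against 8, with a −log10 q of at least 5, also when required in both holding libraries, with lists of equal length, and with genes within 20 kb. Members with more regions numbered 7 with summit windows. BMPR2's FOXD2 minus control difference was −0.5 where 50% of a region had to be covered, against 1; the cause was not tested. Shared ligand regions ranked higher numbered 5 (10) at that coverage, and those of the ID genes 1 higher and 6 lower (3 and 10) within 20 kb. At a −log10 q of 5 INHBA's difference was 0 (1), LTBP2's −6.5 (−4) and its gained minus lost −5 (−3). With lists of equal length the differences of TGFBR1 and SKI were −0.5 (−1 each) and that of BMPR1B −1 (−2.5), and with summit windows TGFBR1's was −2. Read depth is unknown, so an absent interval means only that none was called.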
